A study of Mus musculus with 12 samples.

Results

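Small leucine-rich proteoglycans are secreted proteins built from leucine-rich repeats, and 9 of their genes were followed here: Dcn, Bgn, Aspn, Lum, Fmod, Prelp, Omd, Ogn and Podn. They were taken by symbol from 2 tables of read counts, and each of the 9 was found in both, among 26639 features listed for white adipose tissue (WAT) and 22851 listed for cultured adipocytes. The study removed Xap5, listed under the symbol Fam50a, from cells that express Cre under the adiponectin promoter. The comparison asks how adipose tissue and cultured adipocytes differ in gene expression once the gene is gone.

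The 4 groups held 3 libraries each. WAT was taken at postnatal day 42 from wild-type (WT) mice and from conditional knockout (cKO) mice carrying the adiponectin-driven deletion. The cultures, of WT and knockout (KO) genotype, were grown from pre-adipocytes of newborn subcutaneous fat, and RNA was taken on day 8 of induction with insulin, dexamethasone and IBMX. The adiponectin promoter is active in mature adipocytes, so the fibroblasts, blood vessels and immune cells that remain in whole WAT are not its target. Nothing in the labels states that the 3 libraries of a group are 3 different mice or 3 different cultures, so p-values measure the spread between these libraries, which may be technical. In bulk RNA, fewer cells of a type and less RNA per cell cannot be told apart.

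These proteoglycans coat collagen fibrils and set their diameter and spacing, and several carry chondroitin, dermatan or keratan sulfate chains on the protein core. Free in the matrix, some also bind growth factors of the TGF-β family or engage receptors on immune cells and fibroblasts. In adipose tissue they are known mainly as products of fibroblasts and other stromal cells, and decorin is widely used as a marker of the adipose stroma. The family is divided into classes: decorin, biglycan and asporin in the first, lumican, fibromodulin, PRELP and osteomodulin in the second, osteoglycin in the third and podocan in a more distant class.

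The targeted gene, Fam50a, had 35.3, 32.5 and 36.5 CPM (read counts scaled to library size, with TMM factors within each table) in the WT WAT libraries and 23.3, 16.8 and 28.9 in the cKO libraries, a log2 fold change of -0.60 ± 0.20 (SE; edgeR's quasi-likelihood test, Benjamini-Hochberg adjusted p = 0.0395). In culture it had 57.9, 52.0 and 45.2 CPM in WT and 46.2, 42.9 and 41.1 in KO libraries (log2 fold change -0.26 ± 0.12, adjusted p = 0.134), so the groups overlapped there. Counts of the whole gene do not show whether the deleted part was transcribed. Library totals ran from 28844370 to 33997204 counts in WAT and from 10863158 to 21773610 in culture. The adipocyte markers were present in every group, with Adipoq at a mean of 5007 CPM in WT WAT and 2029 CPM in WT culture. In WAT, cKO replicate 2 lay nearer to WT than the other cKO libraries in its adipocyte and macrophage markers, and cKO replicate 3 held epithelial markers, so values without each of them are given with the marker sums.

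In WAT all 9 proteoglycan genes passed the test between cKO and WT, against 52.4% of the 16293 genes tested. 7 rose (background 28.2%) and 2 fell (background 24.2%), and for none of the 9 did the cKO libraries overlap the WT libraries. Over all genes tested, 35.1% had every cKO library above every WT library and 29.3% had every cKO library below. The genes that rose were Dcn, Lum, Bgn, Fmod, Ogn, Aspn and Omd, and those that fell were Prelp and Podn. The median size of the change was 2.39 on the log2 scale over the 9 genes, against 0.75 over all genes tested. The genes were chosen with earlier results of these data in view, so the counts only describe them. Omd passed the filter on low counts only through its cKO reads and so had to differ; it is included in the 9 and the 7, and the other 8 genes had enough reads in both groups.

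**Figure D1:**
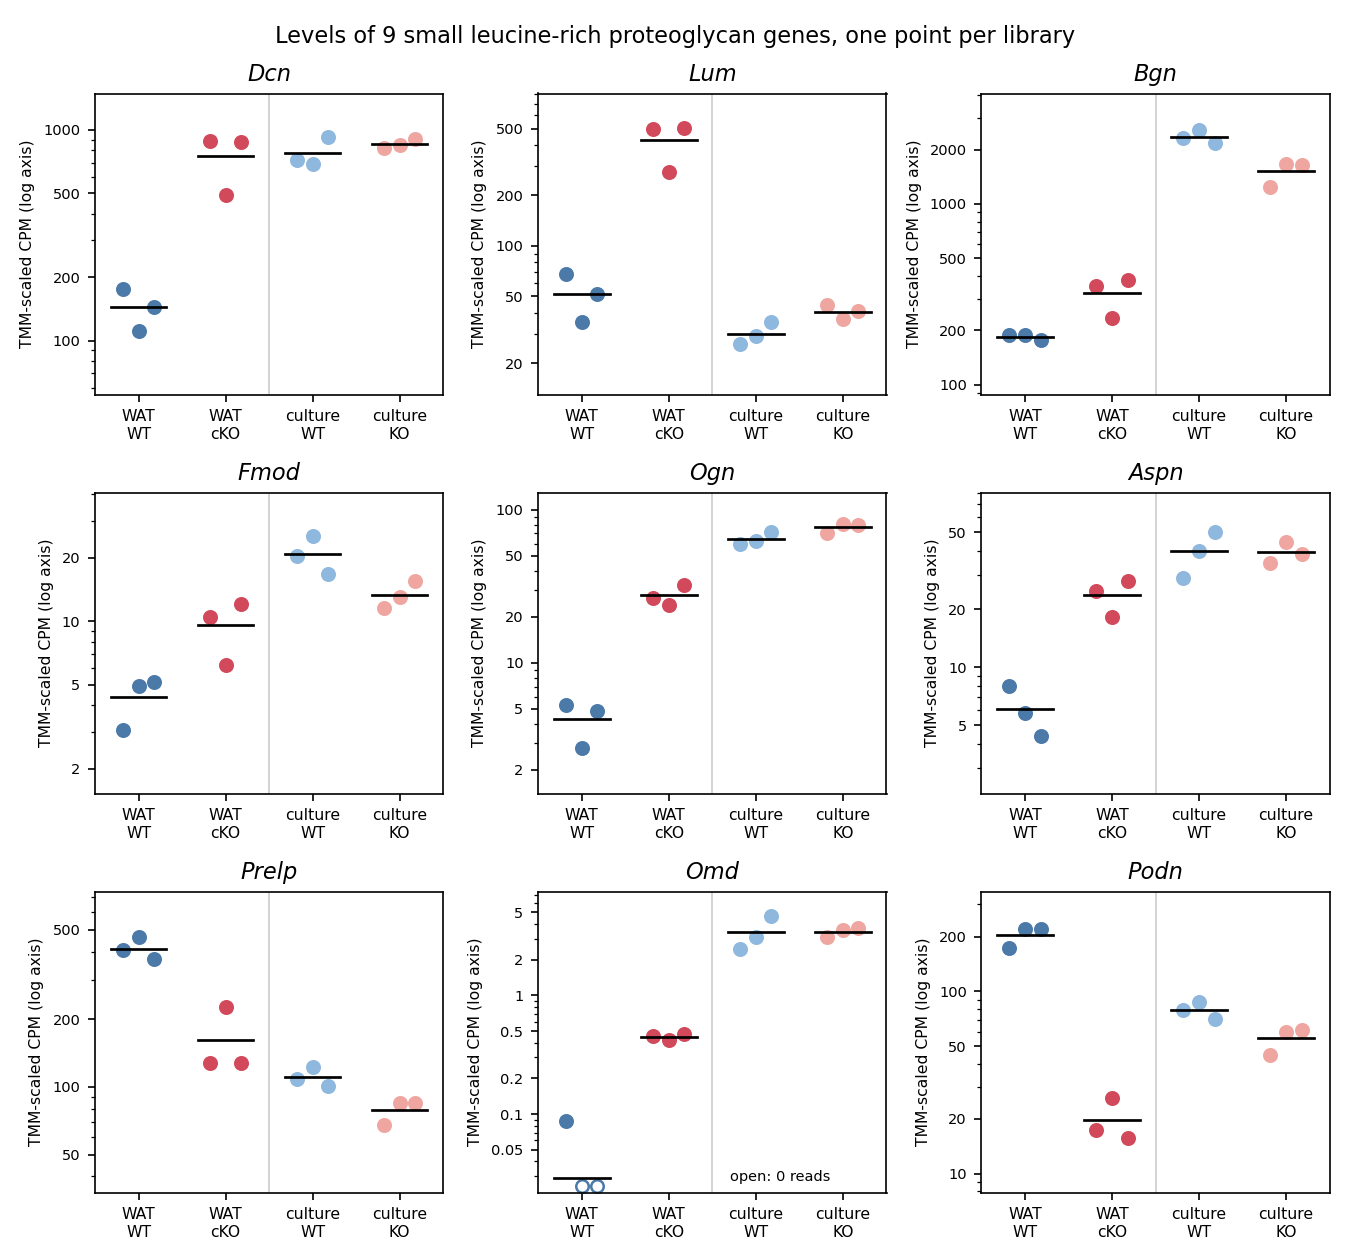
Level of each of the 9 genes in each library, in TMM-scaled CPM on a log axis, with WAT and culture scaled separately. Each point is 1 library, black lines are group means of 3 libraries, and open circles mark 2 WT WAT libraries with 0 Omd reads; in WAT the cKO points lie above the WT points for 7 genes and below them for Prelp and Podn.

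Among the class that includes decorin, Dcn, which encodes decorin, a collagen-binding proteoglycan that also binds TGF-β, had 176, 111 and 145 CPM in the 3 WT WAT libraries and 890, 493 and 877 CPM in the 3 cKO libraries. All cKO values were above the WT values, and cKO replicate 2 was the lowest of them. The means were 144 ± 32.7 and 753 ± 226 CPM (SD, n = 3 each), a log2 fold change of 2.39 ± 0.29 (SE, adjusted p = 0.000964). Bgn, which encodes biglycan, a close relative of decorin that engages Toll-like receptors when it is free in the matrix, had 189, 188 and 176 CPM in WT and 351, 236 and 379 CPM in cKO libraries. The WT libraries lay close together and every cKO library lay above them (log2 fold change 0.80 ± 0.19, adjusted p = 0.0109). Aspn encodes asporin, which binds collagen and TGF-β. It had 8.01, 5.76 and 4.42 CPM in WT and 24.9, 18.1 and 28.1 CPM in cKO libraries (log2 fold change 1.97 ± 0.27, adjusted p = 0.00149), again without overlap.

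The class that includes lumican split. Lum, which encodes lumican, a regulator of collagen fibril assembly, had 67.8, 35.1 and 52.0 CPM in WT tissue and 499, 275 and 507 CPM in cKO tissue. It rose by 3.05 ± 0.33 on the log2 scale (adjusted p = 0.000772), and its lowest cKO library was above its highest WT library. Fmod encodes fibromodulin, a collagen-binding protein best known from tendon. Its levels were 3.05, 4.92 and 5.17 CPM in WT and 10.5, 6.19 and 12.1 CPM in cKO libraries, a log2 fold change of 1.13 ± 0.33 (adjusted p = 0.0241). The Fmod groups did not overlap, but the gap between WT replicate 3 and cKO replicate 2 was small, and the call was lost without WT replicate 1, WT replicate 2, cKO replicate 1 or cKO replicate 3, with adjusted p of 0.0679, 0.0584, 0.0757 and 0.0678. Omd encodes osteomodulin, known from bone, and was barely read in WT WAT, with 2, 0 and 0 reads against 19, 17 and 21 reads in cKO WAT. Scaled by library, that is a ratio of 16.0 with a 95% counting interval of 4.23 to 135, which covers counting error only. The fitted log2 fold change was 3.82 ± 0.97 (adjusted p = 0.0142). Since the gene was tested only because of its cKO reads, this p is no independent support. The gene did not pass without WT replicate 2 (adjusted p = 0.0532) or WT replicate 3 (adjusted p = 0.0533), and without WT replicate 1, which leaves WT at 0 reads, the fitted value was 6.98 and is set by the model's handling of zeros.

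Prelp, of the same class, encodes a protein that anchors basement membranes to the collagen beneath them, and it moved the other way. It had 405, 463 and 370 CPM in WT tissue and 128, 228 and 128 CPM in cKO tissue, so that all cKO libraries lay below all WT libraries. It fell by 1.36 ± 0.25 on the log2 scale (SE, adjusted p = 0.00421), or 2.56-fold. With scaling by library size alone the fall was smaller, at -0.68 (adjusted p = 0.0350).

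Ogn encodes osteoglycin, also called mimecan. It had 5.31, 2.80 and 4.88 CPM in WT tissue and 26.7, 23.9 and 32.2 CPM in cKO tissue, and rose by 2.67 ± 0.27 on the log2 scale (adjusted p = 0.000661). Podn encodes podocan, a collagen-binding protein first described in the kidney. Its levels were 174, 221 and 221 CPM in WT and 17.4, 26.02 and 15.7 CPM in cKO libraries, with the means 205 ± 27.1 and 19.7 ± 5.54 CPM (SD, n = 3 each). Podn fell by 3.38 ± 0.23 on the log2 scale (adjusted p = 0.000413), or 10.4-fold, and had the smallest adjusted p of the 9 genes.

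In culture 5 of the 9 genes passed the test between KO and WT, against 19.5% of the 12587 genes tested, and the changes were smaller. Only Lum rose (background 8.94%), and Bgn, Fmod, Prelp and Podn fell (background 10.6%). In these 5 genes the groups did not overlap, as in 18% of all genes tested on the higher side and 18.8% on the lower side. The median size of the change was 0.43 on the log2 scale over the 9 genes and 0.23 over all genes tested. In 1 fit over all 4 groups none of the 9 passed in culture, with adjusted p from 0.0930 for Bgn to 0.364 for Lum among these 5.

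Bgn was the most abundant of the 9 genes in culture, at 2324, 2550 and 2162 CPM in WT and 1240, 1662 and 1644 CPM in KO libraries. Every KO library was below every WT library, and Bgn fell by 0.63 ± 0.13 (SE, adjusted p = 0.00152). Lum had 25.9, 29.0 and 35.2 CPM in WT and 44.3, 36.7 and 41.0 CPM in KO libraries. Its groups did not overlap and it rose by 0.43 ± 0.13 (adjusted p = 0.0242), but the call was lost without WT replicate 1, WT replicate 2 or KO replicate 1 (adjusted p = 0.114, 0.0995 and 0.0893). Fmod had 20.4, 25.5 and 16.7 CPM in WT and 11.5, 13.0 and 15.5 CPM in KO libraries, and fell by 0.63 ± 0.17 (adjusted p = 0.00966). Its lowest WT library, replicate 3, was just above its highest KO library, and the call was lost without WT replicate 2 (adjusted p = 0.125).

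Prelp had 109, 123 and 101 CPM in WT and 67.6, 84.5 and 84.6 CPM in KO cultures and fell by 0.49 ± 0.12 (adjusted p = 0.00620). Podn had 78.8, 87.8 and 70.2 CPM in WT and 44.7, 59.9 and 61.5 CPM in KO cultures and fell by 0.51 ± 0.13 (adjusted p = 0.00802). These were the only members that passed the test downward in both WAT and culture. The call was lost for both without WT replicate 2 (adjusted p = 0.0815 for Prelp and 0.0857 for Podn) and for Podn also without KO replicate 1 (adjusted p = 0.0543). KO replicate 1 was the lowest KO library for 8 of the 9 genes, the exception being Lum.

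Dcn did not pass the test in culture, at 718, 693 and 931 CPM in WT and 822, 851 and 909 CPM in KO libraries (log2 fold change 0.14, 95% confidence interval -0.11 to 0.39, adjusted p = 0.441). Ogn had means of 64.8 and 76.8 CPM (0.25, interval 0.01 to 0.48, adjusted p = 0.129). Aspn had means of 39.7 and 39.3 CPM (-0.01, interval -0.32 to 0.30, adjusted p = 0.973). Omd had means of 3.41 and 3.44 CPM (0.02, interval -0.51 to 0.56, adjusted p = 0.967). For these 4 genes the WT and KO libraries overlapped, and the upper bounds lay below the WAT log2 fold changes of the same genes. Without WT replicate 3 Dcn (0.29, adjusted p = 0.0422) and Ogn (0.33, adjusted p = 0.0255) passed the test upward.

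**Figure D2:**
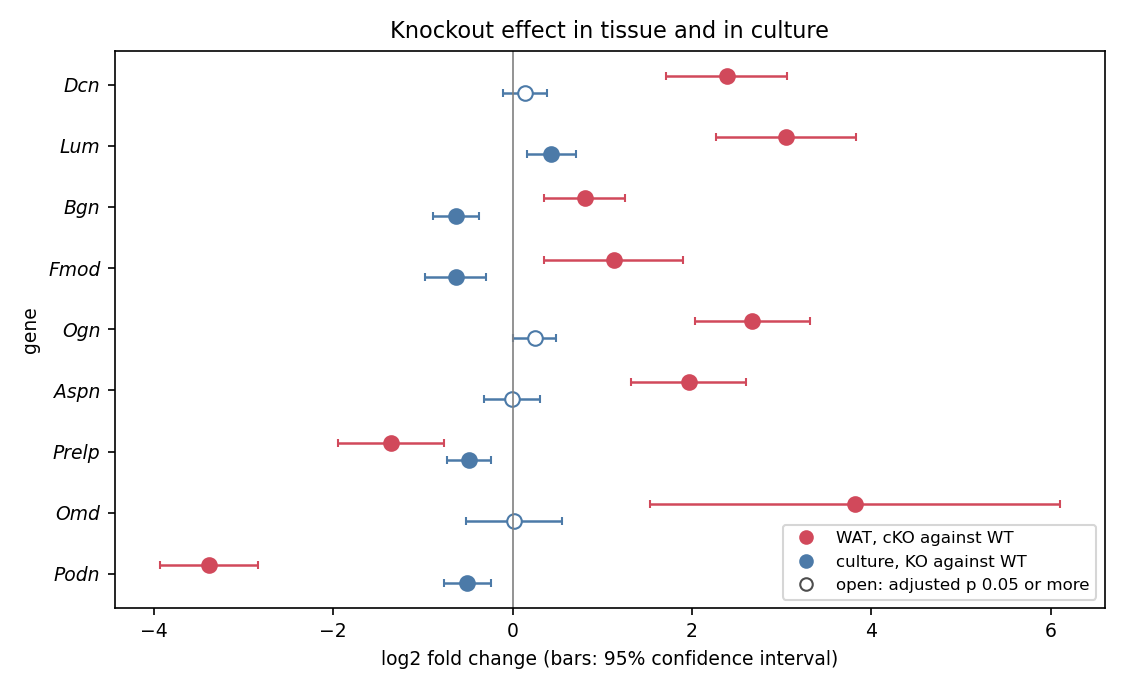
Log2 fold change of each gene between knockout and WT in WAT (red) and in culture (blue), with 95% confidence intervals over 3 libraries a group. Open points did not pass the adjusted p threshold; Bgn and Fmod lie to the right of 0 in WAT and to the left in culture.

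The WAT effect differed from the culture effect for all 9 genes in 1 model over the 12 libraries, in which 48.8% of 14463 genes passed the same test of the difference. The difference was positive for 7 (background 27.7%) and negative for 2 (background 21.1%). It was 2.28 ± 0.32 (log2, SE) for Dcn, 2.65 ± 0.36 for Lum, 2.46 ± 0.27 for Ogn, 2.01 ± 0.34 for Aspn and 3.77 ± 0.86 for Omd, whose value went to 6.40 without WT WAT replicate 1 and rests on the few WT reads given above. Bgn and Fmod passed the test in opposite directions in tissue and culture, and their differences were 1.47 ± 0.26 (adjusted p = 0.000515) and 1.80 ± 0.38 (adjusted p = 0.00177). Podn fell in both systems and fell further in WAT, by -2.84 ± 0.27 (adjusted p = 1.0e-05). For Prelp the difference was -0.84 ± 0.29 (adjusted p = 0.0275), and it did not pass under 8 of the 19 alternatives, among them scaling by library size alone (-0.19, adjusted p = 0.571).

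The make-up of the family's reads shifted with genotype. Together the 9 genes took 0.0776% to 0.0818% of all reads in WT WAT and 0.160% to 0.257% in cKO WAT. With TMM scaling the rise was smaller, from sums of 979 to 1031 CPM in WT to 1306 to 1980 CPM in cKO WAT. In WT WAT Prelp gave 40.7% ± 3.71 of the reads of the 9 genes (SD, n = 3), Podn 20.3% ± 2.98, Bgn 18.2% ± 0.178 and Dcn 14.2% ± 3.23. In cKO WAT Dcn gave 42.6% ± 4.25, Lum 24.1% ± 2.61, Bgn 18.4% ± 0.646, Prelp 10.2% ± 6.30 and Podn 1.23% ± 0.666. Prelp led in each WT WAT library and Dcn in each cKO WAT library, with Lum next to it, while the share of Bgn moved by 0.200 percentage points, with overlapping libraries. A share within a library does not depend on how libraries are scaled to each other. With 3 libraries a group the exact two-sided permutation test cannot go below p = 0.1, which it reached for 7 of the 9 genes in WAT (0.129 adjusted over the 9), all but Bgn (p = 0.8) and Fmod (p = 0.3).

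In culture the 9 genes took 0.344% to 0.368% of reads in WT and 0.229% to 0.280% in KO libraries. Bgn dominated, with 67.5% ± 4.11 of the family's reads in WT and 56.3% ± 2.89 in KO cultures (SD, n = 3 each). Dcn gave 22.5% ± 4.07 in WT and 32.2% ± 2.64 in KO cultures. The share of Lum was 0.865% against 1.54% and that of Ogn 1.87% against 2.87%. These 4 shares did not overlap between the genotypes (exact permutation p = 0.1, the smallest possible, and 0.225 adjusted over the 9). The shares of a library add up to the whole, so a lower share of Bgn goes with higher shares of other genes. By level, neither Dcn (adjusted p = 0.441) nor Ogn (adjusted p = 0.129) passed edgeR's test in culture.

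**Figure D3:**
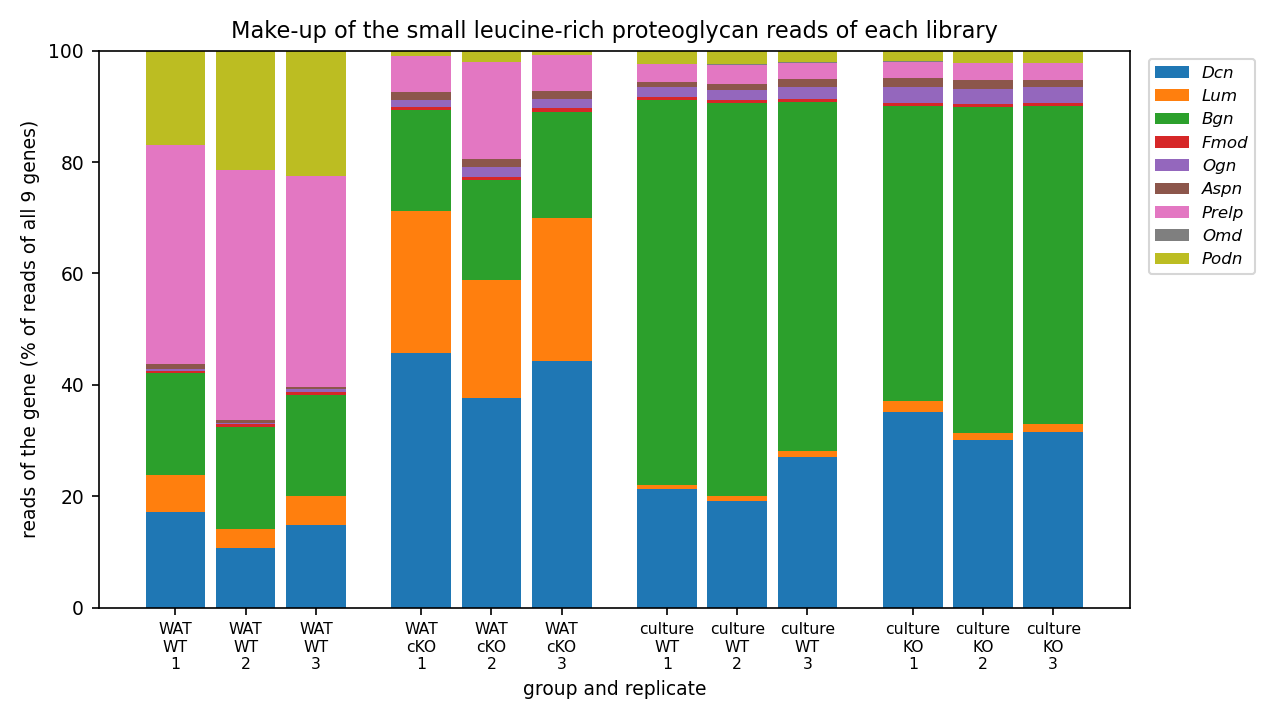
Share of each gene in the reads of all 9 genes, in percent, 1 bar per library (3 per group). Prelp and Podn fill most of the WT WAT bars, Dcn and Lum most of the cKO WAT bars and Bgn most of the culture bars; WAT cKO replicate 2 keeps 17.4% Prelp.

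Levels between genes can be compared per transcript length. In WT WAT the order in CPM per kilobase was Prelp (114), Bgn (69.2), Podn (56.4), Dcn (30.7), Lum (21.1), Aspn (2.60), Ogn (1.69), Fmod (1.40) and Omd (0.0129). The ranges of Dcn and Lum over the libraries overlapped, as did those of Aspn and Ogn and of Ogn and Fmod. Within a library Dcn stood above Lum in 3 of 3, whereas Ogn and Fmod changed places between libraries. In cKO WAT Lum (174), Dcn (161) and Bgn (121) led with overlapping ranges and in this order within each library, Prelp (44.6) came next, and Podn (5.42) stood between Aspn (10.2) and Fmod (3.07). In WT culture Bgn (880) and Dcn (166) stood clear of the rest, and Prelp (30.6), Ogn (25.3), Podn (21.7), Aspn (17.1) and Lum (12.3) followed, the range of each overlapping the next, with Ogn above Podn and Aspn above Lum within each library. In KO culture Bgn (568) and Dcn (183) again led, and Ogn (29.9) stood above Prelp (21.8). Tissue and culture were scaled separately, so only the order within each is compared.

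The WAT cKO libraries were not alike. Replicate 2 had the lowest cKO level for all 7 genes that rose and the highest cKO level for Prelp and Podn, and so lay nearest to WT for each of the 9 genes. The summed level of 12 adipocyte marker genes was 71925 to 74087 CPM in WT libraries, and it was 15629 CPM in cKO replicate 1, 29241 CPM in replicate 2 and 11316 CPM in replicate 3. The summed level of 12 macrophage markers was 456 to 710 CPM in WT and 4067, 2099 and 4426 CPM in cKO. In both sums replicate 2 was also the cKO library nearest to WT, whereas its Fam50a level, given above, was the lowest of the cKO libraries. Without replicate 2 all 9 genes passed in the same direction, with log2 fold changes from 0.96 for Bgn to 3.84 for Omd among those that rose, -1.71 for Prelp and -3.66 for Podn. Their part in the proteoglycan results was not tested.

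Several marker lists of other cell types moved in WAT as well, where 28.2% of all genes tested rose and 24.2% fell. Of 15 fibroblast and progenitor markers 9 rose and 1 fell in cKO WAT (median log2 fold change 0.74, against 0.12 over all genes tested), among them Fap, a protease of activated fibroblasts (2.36, adjusted p = 0.000894), and Pdgfra, a receptor that marks adipose progenitors (2.17, adjusted p = 0.00306). The summed level of these 15 genes nevertheless went from 13494 to 15647 CPM in WT down to 7376 to 8151 CPM in cKO, because Gsn, which encodes gelsolin, made up most of it and fell from a mean of 12167 to 3699 CPM. Of 12 adipocyte markers 10 fell and none rose, and of 12 macrophage markers 10 rose and none fell. Tendon and cartilage markers mark tissues rich in Fmod, Omd and Aspn. They summed to 1.90 to 3.18 CPM in WT WAT and 5.95 to 28.4 CPM in cKO WAT. Of the 4 that could be tested there, only 1 rose, Scx, with a low WT mean of 0.297 CPM, and none fell. Tnmd, a gene of this list, was at 0.501 CPM or less in every WAT library. It was also read in culture, at means of 1.38 CPM in WT and 1.64 CPM in KO. The highest sum was that of cKO replicate 3, in which Sox9 had 22.3 CPM and 6 epithelial markers summed to 640 CPM, against 28.8 CPM or less in the other WAT libraries. Of 8 endothelial markers 5 fell and 1 rose, and of 6 Schwann cell markers 3 rose. Of 8 mural markers 2 fell and none rose, a share near that over all genes. These counts depended on scaling. With library size alone 1 endothelial marker fell and 2 rose, 6 Schwann cell markers rose, and 5 mural markers rose and 2 fell. On that scaling 13 fibroblast and progenitor markers rose and 1 fell, and 8 adipocyte markers fell. Lrrn4, the 1 mesothelial marker tested, fell (-3.19). Skeletal muscle markers, of which 1 of 6 rose (Myh1), set single libraries apart, with 1627 CPM in WT replicate 3 and 1251 CPM in cKO replicate 1 against 31.9 to 243 CPM in the other 4. Without cKO replicate 3 the log2 fold changes of the 7 genes that rose lay between 0.66 for Bgn and 3.75 for Omd, and Fmod alone lost its call.

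**Figure D4:**
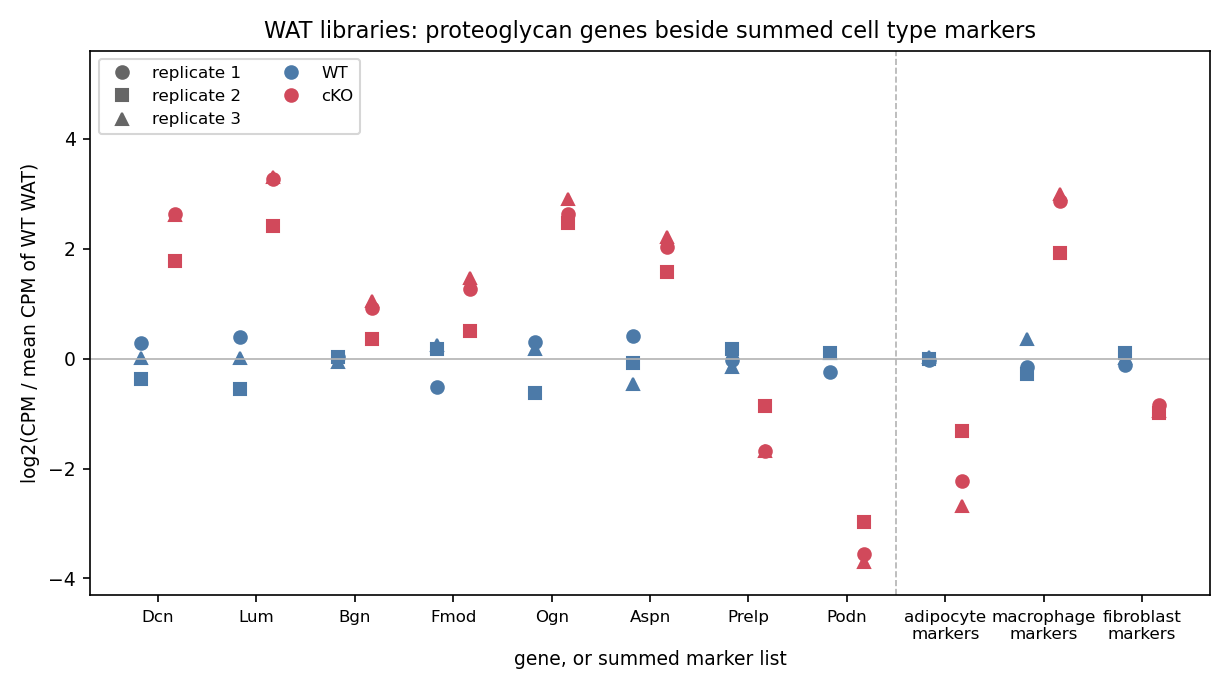
WAT libraries only: level of 8 of the genes (Omd, with 0 reads in 2 libraries, is left out) and summed levels of adipocyte, macrophage and fibroblast markers, each as log2 of the ratio to the mean of the 3 WT libraries. Blue is WT, red is cKO and shapes are replicates; cKO replicate 2 (squares) is the red point nearest to 0 for each gene and for the adipocyte and macrophage sums.

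In culture, 5 of the 11 adipocyte markers tested rose and 1 fell, with sums of 26725 to 27860 CPM in WT and 34166 to 39163 CPM in KO libraries. 6 of 11 macrophage markers fell and none rose (3357 to 3640 CPM in WT, 2272 to 2662 CPM in KO), so macrophage markers were read in the cultures of both genotypes. Of 14 fibroblast markers 4 fell and none rose. Of all genes tested in culture 8.94% rose and 10.6% fell. In 1 fit over all 4 groups no adipocyte marker passed, while 2 macrophage markers and 1 fibroblast marker fell. With the length and GC trend removed 8 adipocyte markers rose, and 7 macrophage and 5 fibroblast markers fell. The part of these markers in the proteoglycan results was not tested.

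Other genes of the family were sparsely read. Of the 9 listed, 6 could be tested in WAT, and 1 rose and 3 fell, against 28.2% and 24.2% of all genes; with library size alone 2 rose and 1 fell. Ecm2, a relative of decorin, rose (1.36 ± 0.26, adjusted p = 0.00433), while Chadl (-1.54), Optc (-1.65) and Podnl1 (-1.67), the closest relative of podocan, fell. Nyx (1.16) and Tsku (-0.47) did not pass. Kera, which encodes the corneal proteoglycan keratocan, had 0, 10 and 4 reads in the cKO libraries and none in WT, at least 2.62-fold higher against a floor of 3 reads over the WT group. Epyc, which encodes the cartilage proteoglycan epiphycan, had 19, 8 and 2 reads in cKO and none in WT, at least 5.42-fold higher on the same floor. Neither had enough reads to be tested, and without the cKO library with most reads the bounds were 1.101 for Kera and 2.79 for Epyc. Chad was not tested in WAT either, with 41 reads in cKO and 20 in WT. In culture 3 of the 9 were tested and 1 fell, against 10.6% of all genes. It was Tsku (-0.59), which encodes the secreted protein tsukushi.

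Of 30 enzymes tested that build and sulfate the sugar chains, 9 rose and 8 fell in WAT, with a median log2 fold change of -0.05. Both shares are near those over all genes tested (28.2% higher and 24.2% lower). B3gnt7, Chsy3 and Xylt1, among those that rose, had WT means of 0.186, 0.237 and 0.294 CPM. They needed their cKO reads to pass the count filter, so their calls are no independent support. Chst1, a keratan sulfate sulfotransferase, fell by 2.49 (adjusted p = 0.000633), from a mean of 169 to 30.1 CPM. This split depended on scaling, since with library size alone 14 rose and 2 fell. In culture 1 of 28 rose and 4 fell, against 8.94% and 10.6% of all genes. Among those that fell was Chst11, a chondroitin sulfotransferase (-0.51, adjusted p = 0.0127).

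The collagens and fibril proteins that these proteoglycans bind had another pattern in tissue than in culture. In WAT 13 of 16 rose and none fell (28.2% and 24.2% over all genes; median log2 fold change 0.80), among them Fbn1, which encodes the microfibril protein fibrillin (1.40, adjusted p = 0.000919). In culture 11 of the 16 fell and none rose (10.6% and 8.94% over all genes; median -0.52), among them Col5a3, a chain of type V collagen (-0.92, adjusted p = 2.6e-05). Bgn and Fmod, which rose in WAT and fell in culture, moved in the same direction as most of this list. Lum rose in both, so in culture it moved against most of this list (0.43, adjusted p = 0.0242). Dcn, Ogn, Aspn and Omd did not pass in culture, and Prelp and Podn fell in both. With length and GC content taken out, 6 of the 16 fell in culture and 1 rose.

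Of the proteases that process or degrade the proteoglycans and their partners, 10 of 13 rose in WAT and 1 fell, among the former Bmp1, which removes the propeptides of procollagens and of biglycan (1.58, adjusted p = 0.000980). In culture 7 of 12 fell and none rose, among them Mmp3, stromelysin (-0.82, adjusted p = 0.000190). Of the receptors and ligands that bind the family, 12 of 23 rose and 2 fell in WAT, among them Cd44, the hyaluronan receptor (3.36, adjusted p = 0.000788). In culture 10 of 22 fell and none rose, among them Lrp1, an endocytic receptor that takes up decorin (-1.004, adjusted p = 0.000178). Mmp13 and Ccn4, among the genes that rose in WAT, had WT means of 0.249 and 0.142 CPM. Bmp4, among those that fell in culture, had a KO mean of 0.491 CPM. Each needed the reads of its higher group to pass the count filter, so these calls are no independent support. The shares over all genes tested were 28.2% higher and 24.2% lower in WAT, and 8.94% higher and 10.6% lower in culture. In the fit over all 4 groups at most 1 gene passed in culture from each of the lists of fibril proteins, proteases and receptors.

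Several of the genes are neighbours, and RefSeq for build GRCm38 places them in clusters. Dcn (chr10:97479500-97518163) and Lum (chr10:97565501-97572703) lie on the same strand with no gene in the 47.3 kilobases between them, and both rose in WAT. On chromosome 13 Aspn, Omd and Ogn follow each other on the plus strand, with gaps of 14.9 and 15.4 kilobases, after Ecm2, and all 4 rose in WAT. This cluster lies inside Cenpp, a gene on the opposite strand with 0.250 to 0.610 CPM in WT and 1.03 to 1.45 CPM in cKO WAT. The strand setting of the counts is not given in the sources used here, so reads of Cenpp and of the cluster cannot be told apart where exons overlap. On chromosome 1 Prelp (chr1:133910304-133930102, minus strand) and Fmod (chr1:134037254-134048280, plus strand) are 107 kilobases apart and moved in opposite directions in WAT, Prelp down and Fmod up. Optc, 0.615 kilobases from Prelp, fell as well. Podn stands alone on chromosome 4 (chr4:108014793-108031954), and Bgn lies on chromosome X (chrX:73483601-73495936), 817 kilobases from Fam50a.

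The 250 bases before the transcription start, from RefSeq for GRCm38.p6, were at hand for 7 of the 9 genes and ranged widely in base composition. The 3 starts of the chromosome 13 cluster are shown because these genes rose together in WAT, and a stretch before the first Podn start because that gene fell furthest. Capitals mark matches, on either strand, to 5 short motifs: TATAAA (the TATA box), TGANTCA (AP-1), GGAATG (TEAD), GGGCGG (the GC box) and CAGCTG (an E-box).

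Aspn, chr13:49544193-49544442, plus strand: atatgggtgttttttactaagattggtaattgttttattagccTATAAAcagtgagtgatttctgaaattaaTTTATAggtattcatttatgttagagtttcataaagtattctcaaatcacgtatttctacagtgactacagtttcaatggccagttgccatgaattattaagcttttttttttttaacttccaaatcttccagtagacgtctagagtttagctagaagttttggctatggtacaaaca
Omd, chr13:49582212-49582461, plus strand: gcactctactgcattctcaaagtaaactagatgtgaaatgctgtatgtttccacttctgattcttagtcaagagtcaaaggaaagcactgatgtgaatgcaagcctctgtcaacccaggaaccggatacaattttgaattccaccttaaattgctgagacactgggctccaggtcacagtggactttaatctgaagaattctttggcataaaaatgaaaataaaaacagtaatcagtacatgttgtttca
Ogn, chr13:49607765-49608014, plus strand: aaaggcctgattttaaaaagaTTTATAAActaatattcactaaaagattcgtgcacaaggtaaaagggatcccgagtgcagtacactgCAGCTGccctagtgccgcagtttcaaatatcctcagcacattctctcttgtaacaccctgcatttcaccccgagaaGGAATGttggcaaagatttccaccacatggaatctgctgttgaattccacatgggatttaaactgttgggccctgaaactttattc
Podn, chr4:108032091-108032204, minus strand: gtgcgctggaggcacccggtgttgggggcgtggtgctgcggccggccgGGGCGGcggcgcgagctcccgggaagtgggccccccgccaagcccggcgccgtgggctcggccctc

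The Aspn window was 30.0% G and C, that of Omd 38.4% and that of Ogn 42.0%, and the first Podn window 78.0% with 32 CpG pairs, where the median over 32851 such windows was 52.4% (quartiles 45.2% and 61.2%). The windows of Fmod, Prelp and Bgn had 51.2%, 55.6% and 64.4%. TATAAA, which 12.4% of all windows hold, began 207 and 178 bases before the Aspn start, and in the Ogn window 2 overlapping matches on opposite strands began 229 and 227 bases before the start. GGAATG (12.6% of windows) was found 86 bases before the Ogn start and CAGCTG (13.0%) at 162 bases. CAGCTG was also found 102 bases before the Bgn start and 61 bases before the second Podn start. GGGCGG (32.7% of windows) was found 202 and 70 bases before the first Podn start, the second in the 136 bases not shown, which GENCODE annotates as exon. The Bgn window also held GGGCGG, at 34, 10 and 6 bases before the start. None of the 5 motifs was found in the Fmod, Prelp or Omd windows, and TGANTCA (6.75% of windows) was in none of the windows of the 7 genes. Such matches describe letters, not binding.

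The transcripts of the 9 genes also differed in base composition. The longest transcripts of Aspn (34.4%), Omd (36.1%), Ogn (36.3%), Dcn (37.4%) and Lum (41.9%) are poor in G and C, and those of Bgn (51.2%), Fmod (53.7%), Prelp (53.8%) and Podn (56.3%) are richer. The richer 4 include 2 that rose and 2 that fell in WAT, and Fmod and Prelp, nearly alike in GC content, moved in opposite directions there. In culture the richer 4 all fell. Across the 9 genes the correlation of log2 fold change with GC content was -0.82 (Pearson) and -0.77 (Spearman) in WAT, and -0.84 and -0.55 in culture. Over all genes tested that had a value, Pearson's r was -0.24 in WAT and -0.33 in culture. These correlations run across genes that share the same libraries and are given as descriptions.

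With a trend of counts with transcript length and GC content removed from each library, all 9 genes still passed the test in WAT and none changed direction. The rises of the GC-poor genes were smaller: 1.27 for Dcn, 2.44 for Lum, 1.70 for Ogn, 0.89 for Aspn and 2.92 for Omd. Those of Bgn (0.84), Fmod (1.18), Prelp (-1.33) and Podn (-3.34) moved little. In culture the same step took Lum (0.18, adjusted p = 0.207) and Podn (-0.29, adjusted p = 0.0507) out of the called genes and brought in Aspn as lower (-0.38, adjusted p = 0.0242).

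**Figure D5:**
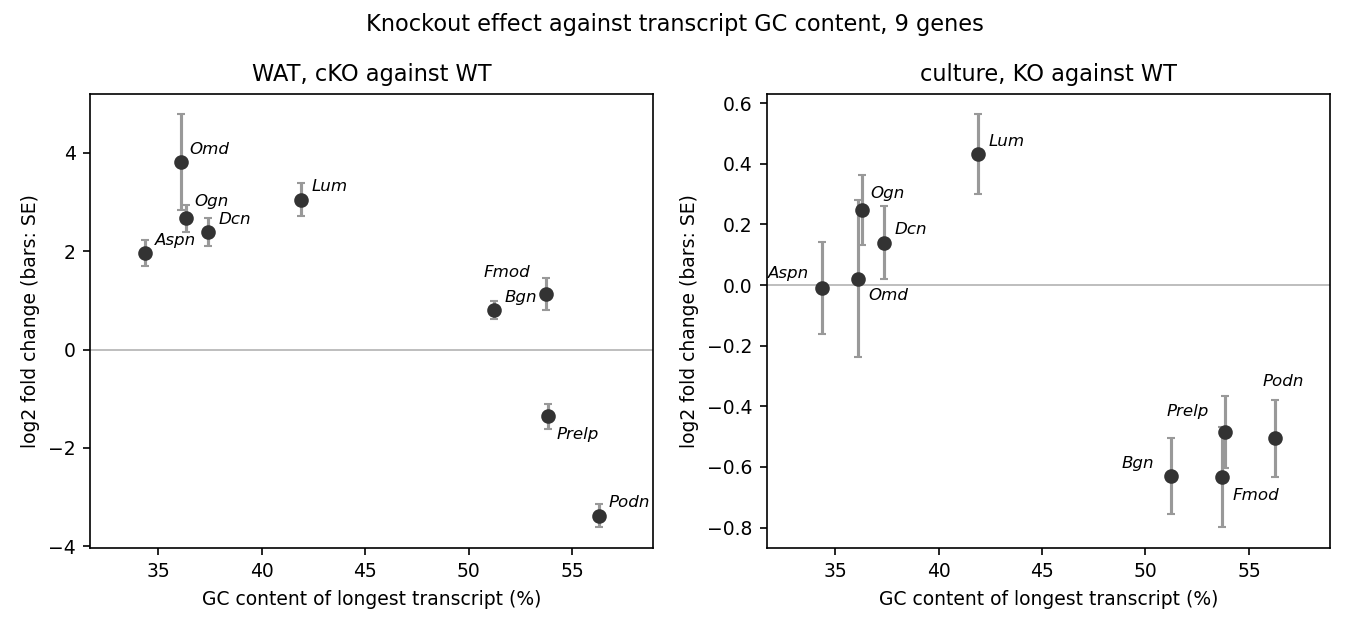
Log2 fold change (± SE) of the 9 genes against the GC content of the longest transcript, in WAT (left) and culture (right), which have different vertical scales. The 5 genes under 42% rose most in WAT, and the 4 genes above 51% are the 4 that fell in culture.

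Log2 levels of 12074 other genes tested in both tables were compared with those of Dcn and Bgn over the 12 libraries. Predicted, clone-named and hyphen-numbered genes were left out, and each table's mean was subtracted. Those closest to Dcn were Tpd52 (Pearson r = 0.994), Gcnt1 (0.994), Aebp2, Rin2 and Fap (each 0.992). Fap had log2 fold changes of 2.36 in WAT and 0.01 in culture, against 2.39 and 0.14 for Dcn. Those closest to Bgn were Mfsd11 (0.991), Tmem164 (0.973), Mdc1 (0.970), Ptprs (0.969) and Elf4 (0.967). Ptprs had log2 fold changes of 0.74 in WAT and -0.51 in culture, against 0.80 and -0.63 for Bgn. These values mostly reflect the steps between the 4 groups and carry no p-value.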

How the data were processed

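RNA was extracted with TRIzol and sequenced from MGIEasy mRNA libraries, per the labels' protocols. Unnormalized read counts of genes were deposited by the authors in 1 table for WAT and 1 for the cultures, with 0 sample columns left unused. The submitters' processing notes list GRCm38, HISAT2 2.1.0, cutadapt 1.11 and FastQC 0.11.2 without their roles. Not given in the sources used here are the counting tool, the annotation and the use of strand.

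Groups came from the sample titles. Genes passing edgeR's count filter (minimum 10) were tested within each table with edgeR 4.0.16 (R 4.3.3), by the quasi-likelihood test on TMM-scaled counts, and called at a Benjamini-Hochberg adjusted p under 0.05 over all genes tested. The difference between effects came from 1 model over symbols in both tables. Adjusted p-values in the text are from this test. Levels are TMM-scaled CPM. Shares were compared by exact permutation. Likeness used log2(CPM + 0.5). Alternatives included limma voom 3.58.1, DESeq2 1.42.0, other scalings, no filter, a replicate block, 1 fit over 4 groups, a length and GC trend (spline with 4 degrees of freedom) and each library left out. The procedure was tested on simulated data.

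Members and lists were chosen with earlier results of these data known. All 9 members were named, and from each list the genes with the smallest p in WAT and in culture; other genes (Fap, Pdgfra, Gsn, Sox9, Tnmd, Adipoq, Ptprs) were named after their values were seen. No 2 libraries of a group agreed within sampling noise (lowest chi-square per degree of freedom 4.81).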

Additional observations from a re-analysis of the deposited data

Results flagged for a closer look

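For 11 of 16 genes of the family tested, the effect of the deletion differed between WAT and culture by edgeR's test of the difference itself (adjusted p under 0.05), as it did for 48.8% of all 14463 genes tested. The WAT effect minus the culture effect, on the log2 scale, was 2.28 for Dcn, 2.65 for Lum, 1.47 for Bgn, 1.80 for Fmod, 2.46 for Ogn, 2.01 for Aspn, -0.84 for Prelp, 3.77 for Omd and -2.84 for Podn. Prelp did not pass under 8 of 19 alternatives, and the Omd value rests on 2 WT reads in WAT. Outside the 9 members the difference was 1.02 for Ecm2, which did not pass as higher with the length and GC trend removed, and -1.51 for Chadl, which did not pass as lower with library size alone. Tissue and culture also differ in age, in the other cells present and in the table their counts come from. The fall of Fam50a passed the test in WAT and not in culture, so the extent of its loss may differ as well. These differences cannot be told apart here.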

How the results depend on the processing

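In WAT all directions of the 9 genes held under each of the 14 alternatives, and only Fmod and Omd lost a call, each without single libraries. With library size alone the median over all genes in WAT moved up by 0.68 on the log2 scale, and 8838 genes were higher and 1427 lower, against 4595 and 3947; removal of the length and GC trend gave 2914 were higher and 4800 lower. For the difference between effects library size alone gave 7331 higher and 1198 lower (main 4009 and 3052) and the length and GC trend 2564 and 4182. In culture, where 1125 were higher and 1334 lower, library size alone gave 786 and 1765 and the trend 1415 and 1138. There 2459 genes passed, against 146 in 1 fit over all 4 groups and 897 to 3380 without 1 library (897 without WT replicate 2, 3380 without WT replicate 3, 1499 without WT replicate 1, 1511 and 1528 without KO replicates 2 and 1). Of the 9 genes 5 passed in culture, but 0 in the fit over 4 groups, 3 without KO replicate 1, and 1 to 7 without 1 library, the lowest being without WT replicate 2. Effects in culture that did not pass the test changed sign: Omd was -0.0354 with library size alone; with the trend removed Dcn was -0.0354, Ogn -0.10 and Omd -0.33; Aspn was 0.00952 without the count filter and 0.0235 with limma voom. Without 1 library Aspn ranged from -0.18 to 0.20 and Omd from -0.16 to 0.33. The Bgn share in WAT differed by -0.53 points when computed per transcript kilobase, and by -0.17 to 0.39 points without 1 library. The cause of these changes was not tested.

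Same-numbered libraries did not deviate together throughout (r from -0.33 to 0.03 in WAT and from 0.03 to 0.24 in culture), so the replicate numbers were not taken as pairing. Pairs with different numbers ran from -0.01 to 0.34 in WAT and from -0.23 to 0.07 in culture. Whether the culture libraries were paired was not tested. With the replicate number as a block 7258 genes passed in WAT, 3824 in culture and 6668 for the difference, Aspn in culture was 0.000843 and Ogn in culture passed (0.25, adjusted p = 0.0407).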
